A study of Mus musculus with 2 samples.

Results

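The genes described here are 29 genes of GABAergic interneuron identity and GABA metabolism, read in hippocampal RNA of the mouse. They were chosen by symbol, with no measured value in the rule but with earlier results of these data known. Each symbol was joined to its gene identifier in the quantifications. They are 29 of 55536 annotated genes. Total RNA was sequenced in 2 libraries, biological replicates 1 and 2, which form 1 group, so no treatment or genotype was compared and no p-value is given. Both libraries came from male B6CASTF1/J mice, the F1 cross of C57BL/6J with CAST/EiJ, aged 2 months, and the tissue label is a layer of the hippocampus. The labels list 300 ng of starting RNA and ERCC spike-ins for libraries with reduced ribosomal RNA. Nothing but the replicate numbers says that separate animals were used, so the spread between the libraries may be technical.

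GABA is the main inhibitory transmitter of the forebrain. Neurons make it from glutamate with glutamate decarboxylase, load it into synaptic vesicles, release it, and take it back up together with astrocytes, where GABA transaminase breaks it down. Hippocampal interneurons are born in the ganglionic eminences of the ventral forebrain under homeodomain and zinc finger factors, among them the Dlx genes, Lhx6 and Nkx2-1, and settle as subtypes that are told apart by calcium-binding proteins, peptides and receptors. Excitatory pyramidal and granule cells far outnumber them, so their transcripts are diluted in RNA of whole tissue.

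The GABAergic program was read at moderate to low levels, with 1 gene standing above the rest at the gene level. Levels are in TPM, which is abundance per unit of transcript length scaled to a fixed sum, and detection required 1 TPM or more in each library. Of the 29 genes, 26 met this. The same rule held for 26.2% of all annotated genes and 57.7% of protein-coding genes. Pthlh, Chodl and Nkx2-1 were the 3 genes below it. The median of the 29 mean levels was 10.6 TPM, beside 14.7 TPM over the 12710 detected protein-coding genes, and 12 of the 29 lay above that median. Together the 29 genes held 0.145% and 0.142% of all gene counts. Among the 28 pairs of neighbours in the order of mean level, the library values of 13 pairs overlapped, so much of the order below Abat is not resolved. In bulk tissue, fewer cells of a type and less RNA per cell cannot be told apart.

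**Figure D1:**
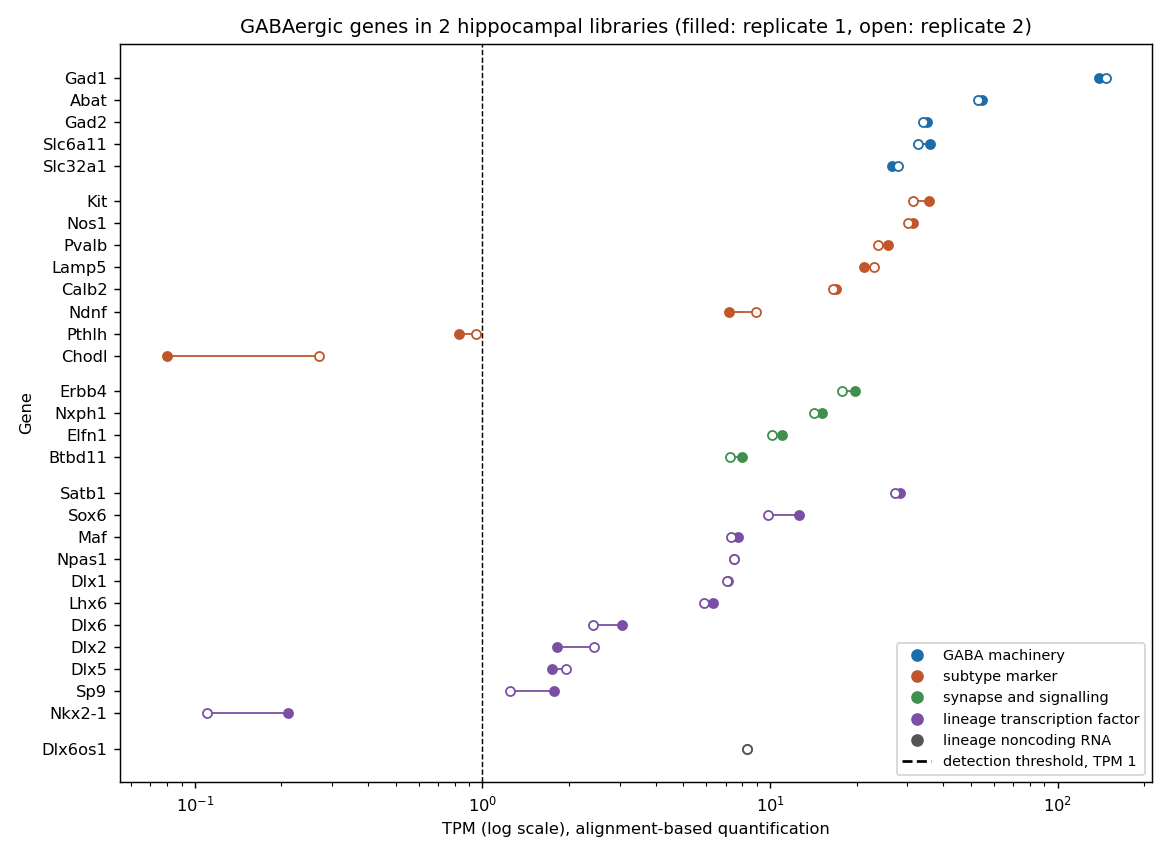
TPM of each of the 29 genes (vertical axis, by role) on a log axis, with replicate 1 filled, replicate 2 open and the detection threshold of 1 TPM dashed. Gad1 stands highest at 139.7 and 146.8 TPM, and Pthlh, Chodl and Nkx2-1 lie left of the threshold in both libraries.

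The 5 genes that make, load, take up and break down GABA were all detected, with means from 27.3 to 143 TPM. Gad1, which encodes the decarboxylase GAD67, lies on chromosome 2 from 70553072 to 70602014 in mm10 and was read at 139.7 TPM in the first library and 146.8 TPM in the second (143 ± 4.97, SD, n = 2). This was the highest level of the 29 genes and ranked 476th among the detected protein-coding genes. Gad2, which encodes the vesicle-associated decarboxylase GAD65 and lies on chromosome 2 from 22622205 to 22693874, was read at 35.1 and 34.1 TPM. The 2 decarboxylase genes did not overlap in level in either library. Slc32a1, which encodes the vesicular GABA transporter VGAT (chromosome 2, 158610767 to 158615748), reached 26.6 and 27.9 TPM. Its range did not overlap that of Gad2.

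GABA clearance and breakdown were represented by Abat and Slc6a11. Abat, the mitochondrial GABA transaminase (chromosome 16, 8513429 to 8621568), was the second highest of the 29 genes at 54.7 and 52.7 TPM. Slc6a11, the GABA transporter GAT3 that is known from astrocytes, lies on chromosome 6 from 114131241 to 114249952 and was read at 35.9 and 32.7 TPM. Its values spanned those of Gad2, so these levels were not distinguishable. Both Abat and Slc6a11 are also expressed by astrocytes, and the 7 astrocyte markers, all detected, summed to 1194 and 1140 TPM. The part of astrocytes in these levels was not tested.

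The ratio of Gad1 to Gad2 depended on how reads were assigned to transcripts. The gene values above come from an alignment to the transcriptome, and a second quantification was made directly from the reads. In the first, Gad1 was 3.98 and 4.31 times Gad2 in the 2 libraries. In the direct quantification it was 2.82 and 3.01 times Gad2. By expected counts, which are not corrected for length, the ratio was 1.69 and 1.86. The full-length coding transcripts alone, Gad1-201 over Gad2-201, gave 1.70 and 1.75 in the alignment-based values and 2.78 and 3.06 in the direct ones. Gad1 was above Gad2 under each of these measures, while the size of the ratio varied more than 2-fold.

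The quantifications divided Gad1 differently among its transcripts, and 3 of them held most of its alignment-based TPM. Gad1-201, the 3355-base coding transcript, held 56.1 and 52.3 TPM in the alignment-based quantification and 144 and 146 TPM in the direct one. Abat-201, the main transcript of the second highest gene, held 51.8 and 48.0 TPM by alignment and 85.4 and 81.4 TPM directly. The lead of Gad1-201 over Abat-201 was thus narrow by alignment. Gad1-206, a 2996-base processed transcript, held 38.1 and 40.7 TPM against 0.00244 and 4.61e-08 TPM. Gad1-204, a coding model of only 398 bases, held 34.7 and 39.0 TPM against 0 in both libraries. It did so from 233 and 269 expected counts of the gene's 7162 and 7366, and this gave 24.8% and 26.6% of its TPM. Without Gad1-204 the gene would stand at 105 and 108 TPM. Gad2 had no such shift: Gad2-201 held 94.2% and 87.7% of the gene in one quantification and 89.7% and 85.4% in the other.

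The wider pathway was covered by 11 further genes of GABA and glutamine metabolism, of which 10 were detected, with a median of 21.7 TPM over all 11. Glul, the glutamine synthetase of astrocytes, was the highest at 749 ± 8.57 TPM. Aldh5a1, which oxidises the product of GABA transaminase, was read at 26.2 and 26 TPM, below Abat in both libraries. Slc6a13, a GABA transporter known from the meninges, was at 3.39 and 4.35 TPM. Slc6a12, the betaine and GABA transporter, was the gene that missed detection, at 0.38 and 0.91 TPM from 17 and 38 counts.

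The excitatory gene Slc17a7 was read above Slc32a1, Gad1 and Gad2. Slc17a7, which encodes the vesicular glutamate transporter VGLUT1, was read at 580 and 590 TPM. That is 21.8 and 21.2 times Slc32a1, the vesicular GABA transporter. Against Gad1 and Gad2 summed, the ratio was 3.32 and 3.26. These ratios moved little between the libraries, and they compare RNA, not cells. They also rest on 1 excitatory gene. The 7 glutamatergic markers ran from a mean of 5.39 TPM for Slc17a6 to 638 TPM for Nrgn, so another choice would change the ratio.

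The 8 subtype markers ranged from 33.5 TPM for Kit to 0.175 TPM for Chodl, and 6 were detected. Pvalb, the calcium-binding protein of fast-spiking basket and axo-axonic cells (chromosome 15, 78191114 to 78206400), was read at 25.8 and 23.7 TPM. Calb2, the calcium-binding protein calretinin (chromosome 8, 110137502 to 110168210), was read at 16.9 and 16.5 TPM and lay below Pvalb in both libraries. Calretinin is also made by mossy cells of the dentate hilus in mice, and 5 of the 6 markers of immature granule and mossy cells were detected, with a median of 4.18 TPM over all 6. Their part in the Calb2 level was not tested.

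Pvalb has 2 annotated transcripts with alternative first exons, and the libraries differed in how its reads were divided between them. Pvalb-202, which starts upstream, took 54.5% of the gene in replicate 1 and 35.1% in replicate 2 in the alignment-based quantification. In the direct quantification it took 1.92e-07% and 49.6%. The sum of both was steadier, at 501 and 477 expected counts, so the gene level did not carry this disagreement. The 250 bases before each start are shown because the starts lie in different sequence; both are from RefSeq on GRCm38.p6 (mm10), minus strand, with each CG in capitals.
Pvalb upstream start, chr15:78206401-78206650: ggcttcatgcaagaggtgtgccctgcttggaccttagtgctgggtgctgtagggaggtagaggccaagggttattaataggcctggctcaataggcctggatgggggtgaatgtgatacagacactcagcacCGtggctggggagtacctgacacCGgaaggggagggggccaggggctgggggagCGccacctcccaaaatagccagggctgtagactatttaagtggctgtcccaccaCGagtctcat
Pvalb downstream start, chr15:78204238-78204487: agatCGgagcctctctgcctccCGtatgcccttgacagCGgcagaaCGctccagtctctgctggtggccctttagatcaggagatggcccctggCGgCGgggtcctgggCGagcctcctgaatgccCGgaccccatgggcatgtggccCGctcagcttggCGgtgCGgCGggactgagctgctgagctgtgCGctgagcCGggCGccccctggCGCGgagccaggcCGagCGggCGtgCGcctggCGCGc
The upstream stretch holds 4 CG pairs and the downstream one 23. Which start the reads came from cannot be told from shares that the 2 quantifications put so far apart.

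Kit, Nos1, Lamp5 and Ndnf mark interneurons of several classes, neurogliaform and ivy cells among them. Kit, the receptor tyrosine kinase for stem cell factor (chromosome 5, 75574916 to 75656722), was read at 35.6 and 31.3 TPM, the highest subtype marker. Nos1, the neuronal nitric oxide synthase (chromosome 5, 117781032 to 117958840), followed at 31.3 and 30.3 TPM, a range that meets that of Kit. Lamp5, a membrane protein of neurogliaform cells (chromosome 2, 136052239 to 136069917), was read at 21.3 and 23.0 TPM. Ndnf, a secreted factor of neurogliaform cells, stood at 7.18 and 8.95 TPM and did not reach the level of Lamp5.

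2 of these genes carry a coding insert whose inclusion could be read from transcript pairs. Kit-201 differs from Kit-204 by 12 coding bases at the end of an exon, which add 4 codons to the stretch of the receptor just outside the membrane. The form with the insert made up 60.3% and 59.8% of the pair in the alignment-based values and 65.4% and 62.3% in the direct ones. Both transcripts were given reads, and the one with the insert had the larger share in each. Kit-201 has 5214 bases and Kit-204 has 5241, so the models also differ outside the insert. Nos1-202 carries a 102-base exon, 34 codons, that Nos1-206 lacks, the insert known from nNOS-mu of muscle. Nos1-202 made up 15.6% of the pair in both libraries by alignment, and 20.0% and 22.0% directly, so Nos1-206 held the larger share. Nos1-202 has 4591 bases beside 10123 in Nos1-206. The pair therefore differs by far more than the exon, and its shares compare TPM over unequal lengths, not inclusion of the exon alone. The insert is in capitals below, with 30 coding bases of the spliced transcript on each side in lower case, read from mm10 on the plus strand.
Kit insert, chr5:75639147-75639158: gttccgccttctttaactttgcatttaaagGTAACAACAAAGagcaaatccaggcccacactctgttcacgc
Nos1 insert, chr5:117915547-117915648: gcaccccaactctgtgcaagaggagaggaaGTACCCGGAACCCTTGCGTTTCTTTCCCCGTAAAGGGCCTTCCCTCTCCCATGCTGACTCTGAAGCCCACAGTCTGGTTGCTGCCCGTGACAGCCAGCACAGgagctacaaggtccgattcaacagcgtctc

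Lamp5 and Ndnf showed a coding transcript beside a noncoding model. For Lamp5, the coding Lamp5-201 held 41.4% and 47.9% by alignment and 75.7% and 78.2% directly, and the processed transcript Lamp5-202 took most of the rest. For Ndnf, the retained-intron model Ndnf-202 has 527 bases against 10101 in the coding Ndnf-201. It held 25 and 47 of the gene's counts but 36.1% and 52.96% of its TPM. The Ndnf counts were 1057 and 1020 while its TPM went from 7.18 to 8.95. Ndnf-201 alone was at 4.59 and 4.21 TPM, so the higher gene TPM of replicate 2 rested on the short model.

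Pthlh and Chodl lay below the detection threshold in both libraries. Pthlh, the parathyroid hormone-related peptide of some fast-spiking interneurons, was read at 0.83 and 0.95 TPM from 28 and 33 counts, just under the threshold and above its value at 3 counts, 0.0889 and 0.0864 TPM. Sp9 at 1.77 and 1.25 TPM was the detected gene nearest above it. Chodl, a marker of rare long-range neurons that also make somatostatin and nitric oxide, was read at 0.08 and 0.27 TPM from 3 and 7 counts. The value of 3 counts, the most that a count of 0 allows, is 0.08 and 0.116 TPM for Chodl, so replicate 1 was not above that floor. In the direct quantification Chodl reached 1.59 and 1.44 TPM, of which 88.9% and 57.8% was the retained-intron model Chodl-204.

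Most of the other interneuron markers outside the 29 genes were also detected, and the part of interneurons in their levels was not tested. Of 20 such genes 18 were detected, and the median over all 20 was 8.25 TPM. The peptide genes Cck, at 271 and 295 TPM, and Sst, at 161 and 168 TPM, were the highest. The cannabinoid receptor gene Cnr1 followed at 73.8 and 72.3 TPM, and the peptide gene Npy at 57.1 and 55.8 TPM. Cck is also expressed by pyramidal cells. Vip was far lower at 7.14 and 6.87 TPM. Reln, the secreted glycoprotein shared by neurogliaform and Cajal-Retzius cells, was at 19.2 and 17.8 TPM. Sp8 and Crh were the 2 undetected genes, at means of 0.595 and 0.860 TPM.

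The 4 genes of interneuron synapses and signalling were all detected, between 7.62 and 18.8 TPM, and each was lower in replicate 2 by alignment-based TPM. In the direct quantification Erbb4, Nxph1 and Btbd11 were also lower in replicate 2, while Elfn1 was higher. Erbb4, the neuregulin receptor of interneurons (chromosome 1, 68032186 to 69108059), was read at 19.8 and 17.8 TPM. Nxph1, the secreted neurexin ligand neurexophilin 1 (chromosome 6, 8948431 to 9249032), was at 15.1 and 14.2 TPM. Elfn1, a postsynaptic leucine-rich repeat protein on somatostatin cells (chromosome 5, 139907943 to 139974722), was at 11.0 and 10.2 TPM. Btbd11, a protein of inhibitory-neuron postsynapses (chromosome 10, 85386814 to 85660292), was lowest at 7.99 and 7.24 TPM. By expected counts, which do not depend on the fitted transcript length, Btbd11 was higher in replicate 2, with 699 and 745 counts.

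Erbb4 has alternative exons both outside and inside the membrane, and they divided differently. The cytoplasmic exon of 48 bases, 16 codons, which makes the form named CYT-1, is in Erbb4-201 and not in Erbb4-202. The form with it made up 5.01% and 1.93% of the pair by alignment and 5.40% and 1.69% directly. Erbb4-202, without the exon, thus held nearly all of this pair in both libraries. Erbb4-201 has 11782 bases and Erbb4-202 has 12037, so the models also differ outside the exon. The second choice lies just outside the membrane, where a 75-base exon in Erbb4-202 is replaced by a 45-base exon in Erbb4-205. Erbb4-205 made up 51.8% and 50.3% of that pair by alignment and 46.4% and 46.1% directly, so the pair was split about evenly. Erbb4-205 is a 2196-base partial model beside 12037 bases in Erbb4-202, so this split compares TPM over unequal lengths. The exons are printed in capitals from mm10, minus strand, to show that the 2 juxtamembrane alternatives differ in sequence as well as length.
Erbb4 cytoplasmic exon with 30 coding bases on each side, chr1:68043908-68043955: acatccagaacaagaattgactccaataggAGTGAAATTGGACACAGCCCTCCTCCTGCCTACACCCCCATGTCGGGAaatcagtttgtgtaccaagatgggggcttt
Erbb4-205 juxtamembrane exon, chr1:68290439-68290483: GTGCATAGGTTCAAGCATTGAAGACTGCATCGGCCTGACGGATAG
Erbb4-202 juxtamembrane exon, chr1:68290243-68290317: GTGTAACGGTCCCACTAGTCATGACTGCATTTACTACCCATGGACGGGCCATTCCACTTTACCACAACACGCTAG
Nxph1 was also divided between coding transcripts, with Nxph1-202 at 56.8% and 63.4% of its pair with Nxph1-201 by alignment and 52.2% and 60.1% directly.

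**Figure D2:**
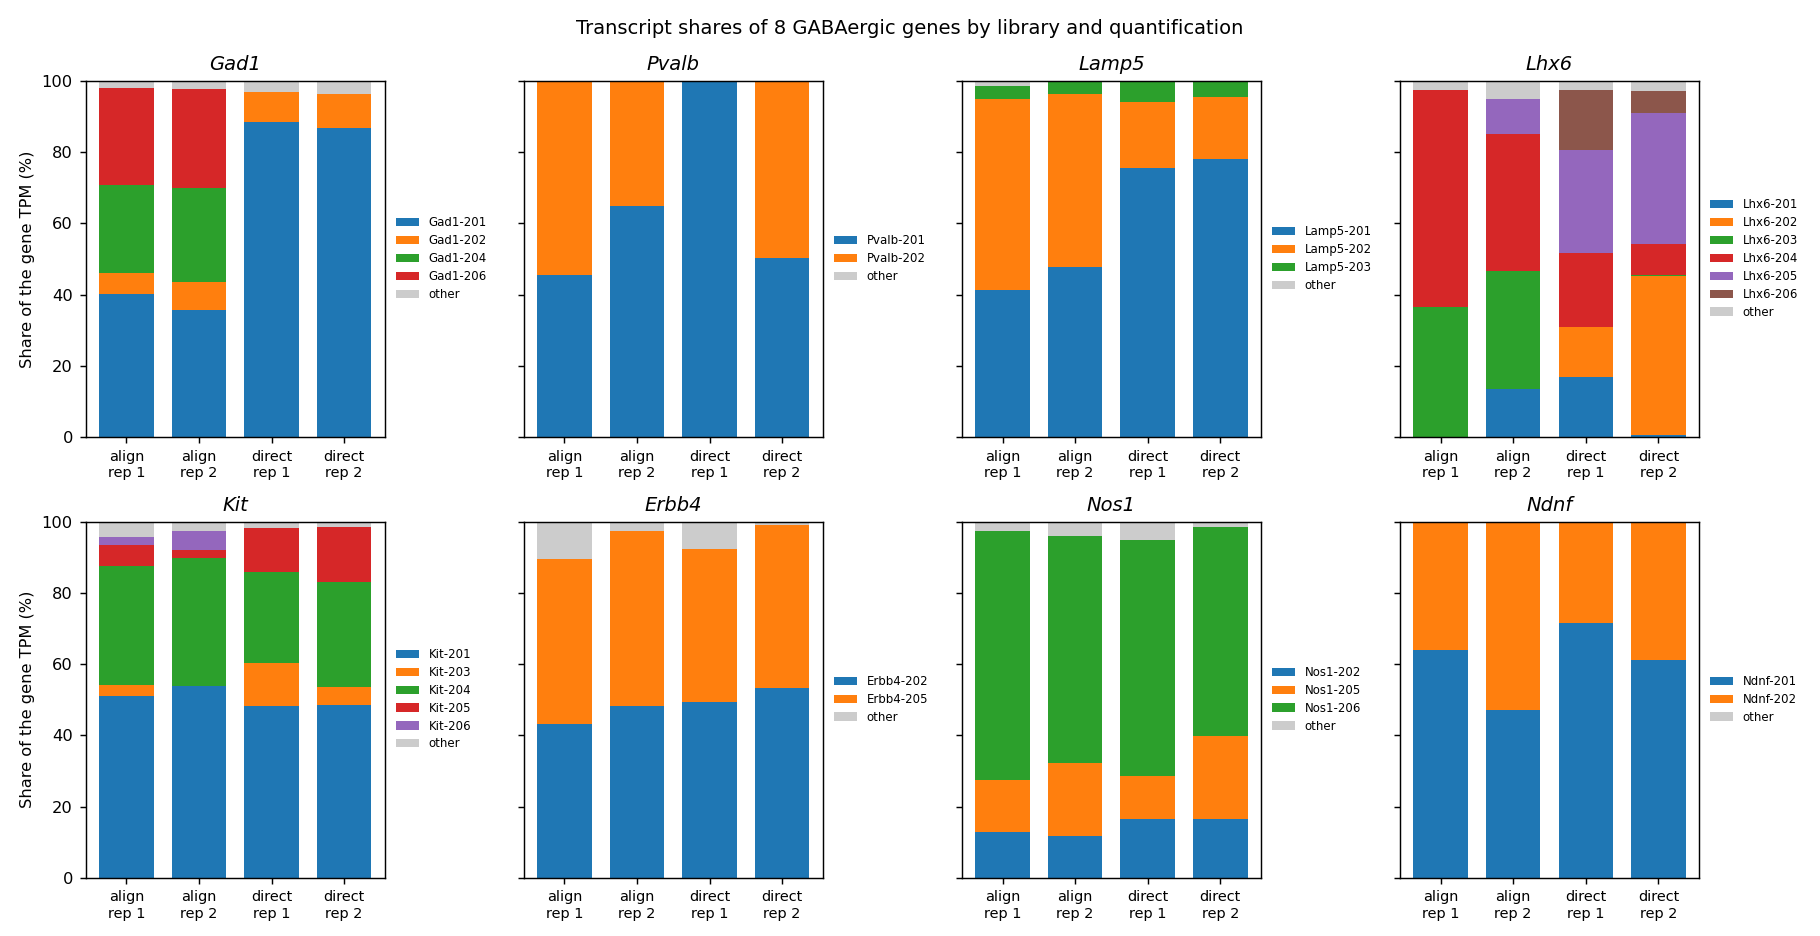
Share of each gene's TPM (percent, vertical axis) by transcript for 8 genes, with 1 bar per library and quantification and transcripts under 5% in every bar pooled as other. Gad1, Lamp5 and Lhx6 change with the quantification, Pvalb also changes between the libraries, and Kit and Erbb4 hold similar main shares in each bar.

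The 11 lineage transcription factors were lower than the machinery, with a median of 6.10 TPM, and 10 were detected. Satb1, a chromatin organiser of maturing interneurons that other forebrain neurons also use (chromosome 17, 51736187 to 51833290), stood apart at 28.2 and 27.2 TPM. Sox6, a factor of cells from the medial ganglionic eminence (chromosome 7, 115470872 to 116038796), was next at 12.6 and 9.87 TPM. Sox6 is also made by oligodendrocyte precursors, whose 5 markers were all detected at a median of 10.7 TPM and summed to 88.9 and 82.8 TPM. Their part in the Sox6 level was not tested. The difference between the libraries was smaller directly, at 13.2 and 12.3 TPM. By alignment, the 331-base model Sox6-207 went from 3.15 to 1.68 TPM and Sox6-210 from 3.19 to 2.89 TPM. What gave the difference was not tested.

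Maf, Npas1, Dlx1 and Lhx6 lay close together. Maf, a leucine zipper factor of medial eminence interneurons (chromosome 8, 115682942 to 115707794), was read at 7.71 and 7.32 TPM. What part of this level came from other cell types was not tested. Npas1, a basic helix-loop-helix factor (chromosome 7, 16455721 to 16477728), was read at 7.48 and 7.50 TPM, which lies within the range of Maf. Lhx6, the LIM homeodomain factor that follows Nkx2-1 in the medial eminence (chromosome 2, 36081953 to 36105408), was read at 6.33 and 5.87 TPM. The quantifications divided it differently among its transcripts. Lhx6-204 took 60.8% and 38.4% by alignment and 20.6% and 8.60% directly. Directly, Lhx6-205 held more than Lhx6-204 in both libraries, at 28.98% and 36.7%, and Lhx6-202 held less in replicate 1, at 14%, and more in replicate 2, at 44.8%. Maf was the steadier case, with the shorter Maf-201 at 53.6% and 53.8% by alignment and 52.3% and 53.7% directly.

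The Dlx homeobox genes come in pairs that face each other, and the pairs differed in level. On chromosome 2, Dlx1 (71528113 to 71533981, plus strand) was read at 7.14 and 7.06 TPM and Dlx2 (71543408 to 71546754, minus strand) at 1.82 and 2.44 TPM, with 9426 bases between them. On chromosome 6, Dlx6 (6863334 to 6868568, plus strand) was at 3.05 and 2.42 TPM and Dlx5 (6877805 to 6882085, minus strand) at 1.75 and 1.95 TPM, with 9236 bases between. By gene TPM, Dlx1 was above the other 3 Dlx members in both libraries, while Dlx2 overlapped Dlx6 and Dlx5. These are small numbers of reads, 449 and 411 for Dlx1 but 97 and 116 for Dlx2, 71 and 68 for Dlx6, and 52 and 59 for Dlx5. Coding transcripts held only 57.1% of Dlx1 by alignment and 52.3% directly. The most abundant of them, Dlx1-201, was at 3.17 and 2.97 TPM by alignment.

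Dlx6os1, also known as Evf2, is a long noncoding RNA on the minus strand (chromosome 6, 6820189 to 6871592). Its annotated span takes in Dlx6, and Dlx5 lies outside it. It was read at 8.34 and 8.30 TPM from 595 and 586 counts, above Dlx5 and Dlx6 in both libraries. Its exons share no base with those of Dlx6 in the annotation. A second identifier of the same name, a short RNA inside its exons, was at 0 in both libraries. Dlx1 does share 335 exon bases with Dlx1as, an antisense RNA that was itself read at 8.04 and 8.90 TPM, so where strand was not used in the assignment these 2 cannot be separated in the shared stretch. Sp9 shares 270 exon bases with Cir1 on the other strand, read at 12.9 and 12.7 TPM, above Sp9 in both libraries, and the same limit applies.

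Sp9 and Nkx2-1 closed the order of the factors. Sp9, a zinc finger factor of the ganglionic eminences (chromosome 2, 73271925 to 73284706), was read at 1.77 and 1.25 TPM from 157 and 128 counts. Nkx2-1, which sets medial eminence fate in the embryo and is switched off in most interneurons that reach the hippocampus (chromosome 12, 56531958 to 56536908), was read at 0.21 and 0.11 TPM from 13 and 7 counts. That is above the floor of 3 counts, at 0.0485 and 0.0471 TPM, in both libraries, and far under its downstream factor Lhx6. Of 10 related Dlx and ventral forebrain genes, 3 were detected, Dlx1as and Nkx6-2 among them. Dlx3 and Lhx8 were at 0 counts in both libraries, Dlx4 had 2 and 0 counts, and Isl1 had 0 and 1. Nkx6-2, at 3.34 and 3.92 TPM, is also made by oligodendrocyte lineage cells.

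The 26 genes with at least 50 expected counts in both libraries were alike in the 2 libraries. None was 2-fold apart by TPM, and 0.273% of all 13916 genes with such counts were. At the same fold and filter, TMM-scaled counts and the direct quantification also called 0. The median log2 ratio of replicate 2 over replicate 1 was -0.05 over these genes and -0.04 over all genes, with 7 genes higher and 19 lower in replicate 2. Higher values in replicate 2 made up 36.9% of all genes, so by TPM the tilt of the members is also that of the whole table. By expected counts, 17 members were lower and 9 higher in replicate 2. Their median log2 count ratio was -0.038, beside -0.0006 over all genes. The log2 ratios ran from -0.50 for Sp9 to 0.42 for Dlx2, and both are genes with few counts. The coefficient of variation of TPM ran from 0.189% for Npas1 to 24.4% for Sp9.

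Among these genes and over all genes, more lay outside a 95% counting interval than counting error alone would place there. The 95% interval of the count ratio, taken exactly from the counts with the library totals as the expected ratio, left out equal levels for 6 of 26 genes, or 23.1%, beside 20.3% of all genes with 50 counts, so the share was near the background. Gad2, Slc6a11, Nos1 and Elfn1 were lower in replicate 2 and Slc32a1 and Lamp5 were higher. The shifts were small: Nos1 went from 5481 to 5018 counts and Lamp5 from 725 to 832. Gad1 went from 7162 to 7366 counts with an interval of the log2 ratio from -0.0008 to 0.09, which includes 0. For 6 genes, Satb1, Erbb4, Calb2, Ndnf, Btbd11 and Npas1, the TPM ratio and the count ratio had opposite signs. For 7 genes, Kit, Nos1, Satb1, Erbb4, Sox6, Ndnf and Btbd11, the TPM ratio lay outside the counting interval of the count ratio.

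**Figure D3:**
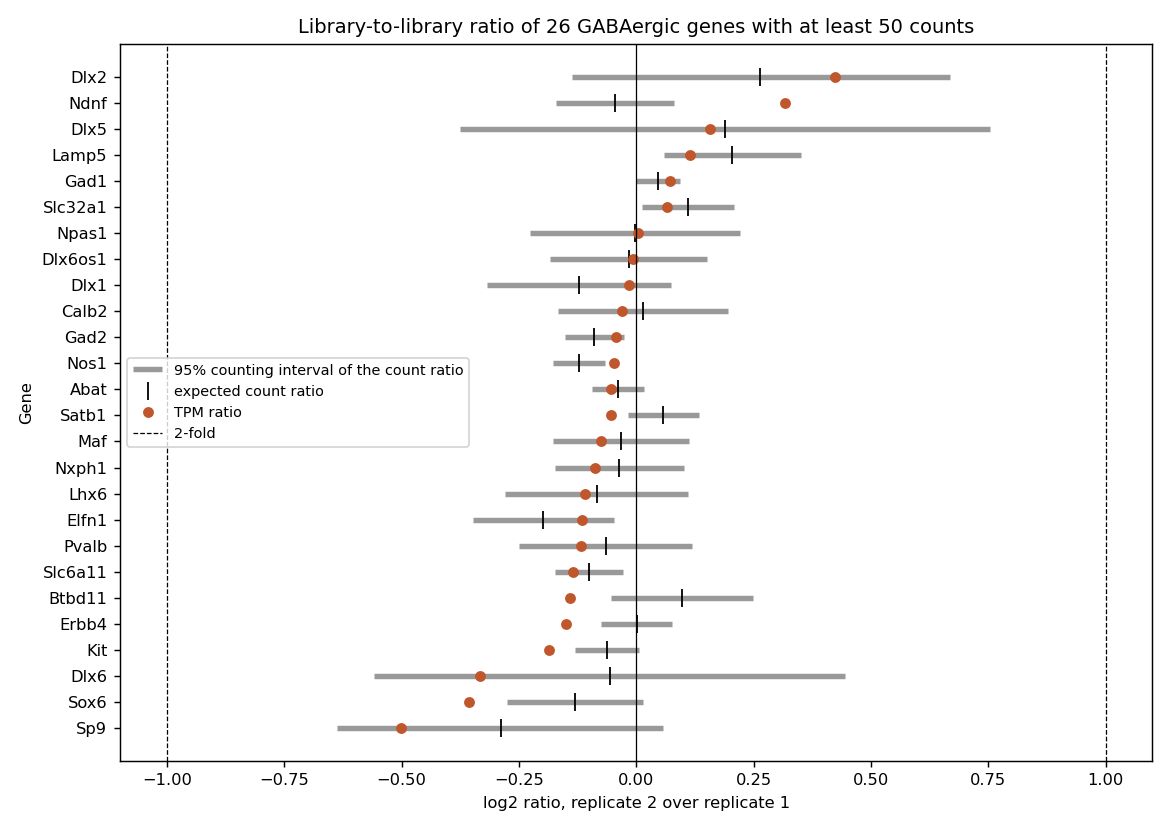
Log2 ratio of replicate 2 over replicate 1 (horizontal axis) for the 26 genes with at least 50 counts, with the TPM ratio as a dot, the count ratio as a tick and its 95% counting interval as a bar. All points lie inside the dashed 2-fold lines, from -0.50 for Sp9 to 0.42 for Dlx2, and the dots of 7 genes lie outside their bars, Ndnf at 0.32 the farthest to the right.

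Between the quantifications the level of most of these genes scaled alike. The direct TPM was 1.69 times the alignment-based TPM at the median of detected protein-coding genes, and 5% of those genes lay under 1.33 and 5% above 2.48. Of the 26 detected genes, 24 lay within that range and 2 lay below it, Gad1 at 1.15 and Sox6 at 1.13. None lay above it, and Btbd11 was highest at 1.99. In both low genes much of the alignment-based TPM was on models under 500 bases, 25.7% for Gad1 and 53.2% for Sox6. In the direct quantification such models held 0% of Gad1 and 23.0% of Sox6. For Sox6, the 8668-base coding Sox6-210 took 613.8 and 571 of 811 and 738 counts but 25.2% and 29.3% of the TPM. Elfn1 had 20.4% of its TPM on a model of that length by alignment and 34.6% directly, at a ratio of 1.85. Whether the short models account for the low ratios was not tested.

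**Figure D4:**
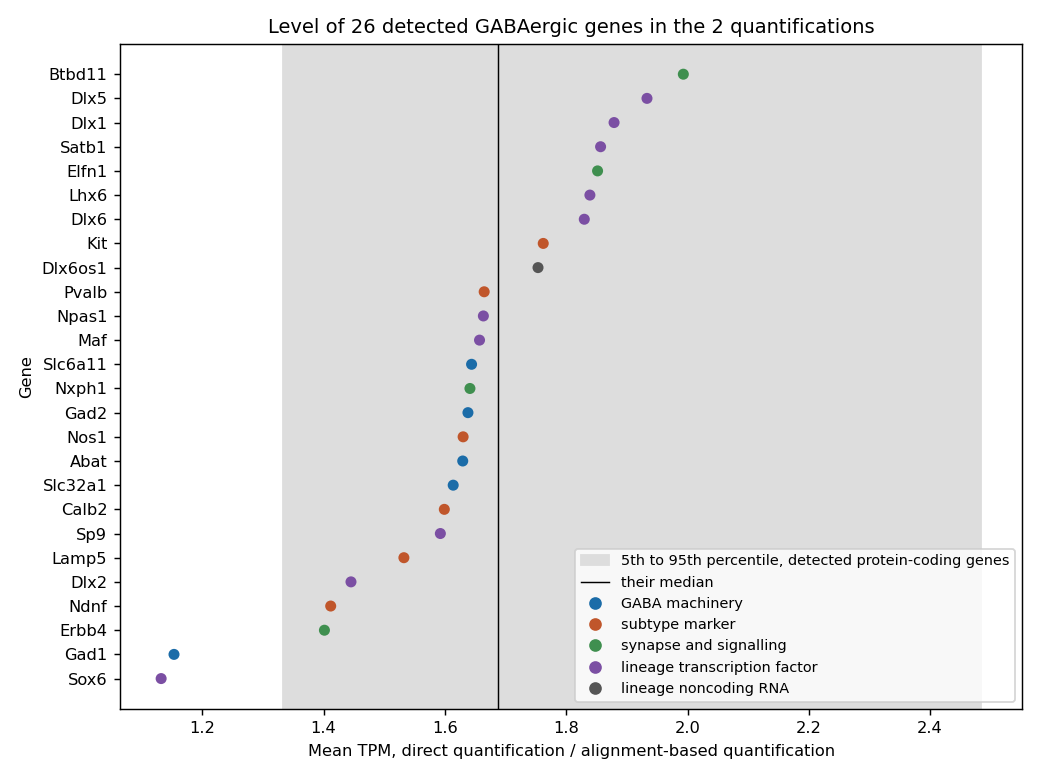
Ratio of the mean TPM in the direct quantification to that in the alignment-based one (horizontal axis) for the 26 detected genes, coloured by role, with the range from the 5th to the 95th percentile of detected protein-coding genes in grey. Gad1 at 1.15 and Sox6 at 1.13 are the 2 genes left of the grey band.

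Of the 25 detected genes with more than 1 transcript, the most abundant transcript differed between the quantifications for 6, beside 24.7% of all such genes, which is about the same share. The 6 genes were Satb1, Lamp5, Erbb4, Dlx6os1, Lhx6 and Dlx6. For Satb1 the change was from Satb1-203 at 23.6% to Satb1-208, which held 21.6% by alignment, so no transcript led clearly. For Dlx6 it was from the 605-base Dlx6-201 to the 2216-base Dlx6-202, and for Dlx6os1 from Dlx6os1-202 to the 524-base Dlx6os1-203. Within the alignment-based values, 21 of the 25 genes had the same top transcript in both libraries, and within the direct values 23 had, beside 88.6% and 85.7% of all such genes. The top transcript held a median of 54.6% of the gene by alignment, beside 61.9% over all such genes, and 65.4% directly, and 18 of the 25 genes had at least 2 transcripts over 10%. Abat-201 held 94.7% and 91.0% of Abat by alignment, and Slc6a11-201 held 99.3% and 98.3% of Slc6a11. Abat, Gad2, Slc6a11, Calb2, Dlx2, Dlx5 and Sp9 were the simpler genes, each with over 80% of its mean TPM on 1 transcript in both quantifications.

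RefSeq promoter windows, from 250 bases before to 50 after a start on GRCm38.p6, were matched for 23 genes, with 39 windows. The sequence TAATT, a core of homeodomain recognition sites, was searched on both strands, so that TAATTA counts as 2 overlapping matches. It was in 9 of the 39 windows, 23.1%, beside 27.0% of all 32851 windows, and these belonged to Lhx6, Sp9, Dlx6os1, Sox6, Btbd11 and Satb1. The windows of Gad1, Gad2 and Slc32a1 did not hold it, which says only that these letters are not in these windows. The median number of CG pairs was 13 per window, beside 7 over all windows. The 2 windows of Dlx6os1 held 7 and 4 matches, the most among these genes. The 250 bases before 1 of its 2 RefSeq starts are printed with the matches in capitals, since this stretch holds the 7 matches. They are on the minus strand and lie inside the gene as GENCODE annotates it.
Dlx6os1, chr6:6869534-6869783: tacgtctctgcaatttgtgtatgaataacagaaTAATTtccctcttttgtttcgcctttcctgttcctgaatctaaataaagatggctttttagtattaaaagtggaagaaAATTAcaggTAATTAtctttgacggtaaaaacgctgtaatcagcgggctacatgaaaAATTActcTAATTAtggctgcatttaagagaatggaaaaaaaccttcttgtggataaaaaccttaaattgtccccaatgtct

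Markers of other cell types were read as well. All 7 glutamatergic markers were detected at a median of 64.5 TPM, with Slc17a7, Neurod2 and Neurod6 of excitatory forebrain neurons among them, as were all 5 microglial ones at 16.8 TPM and all 5 endothelial ones at 6.53 TPM. Of 7 striatal markers 4 were detected, with a median of 1.42 TPM over all 7 and Ppp1r1b highest at 22.7 TPM. The libraries held 31422827 and 31303010 expected counts.

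**Figure D5:**
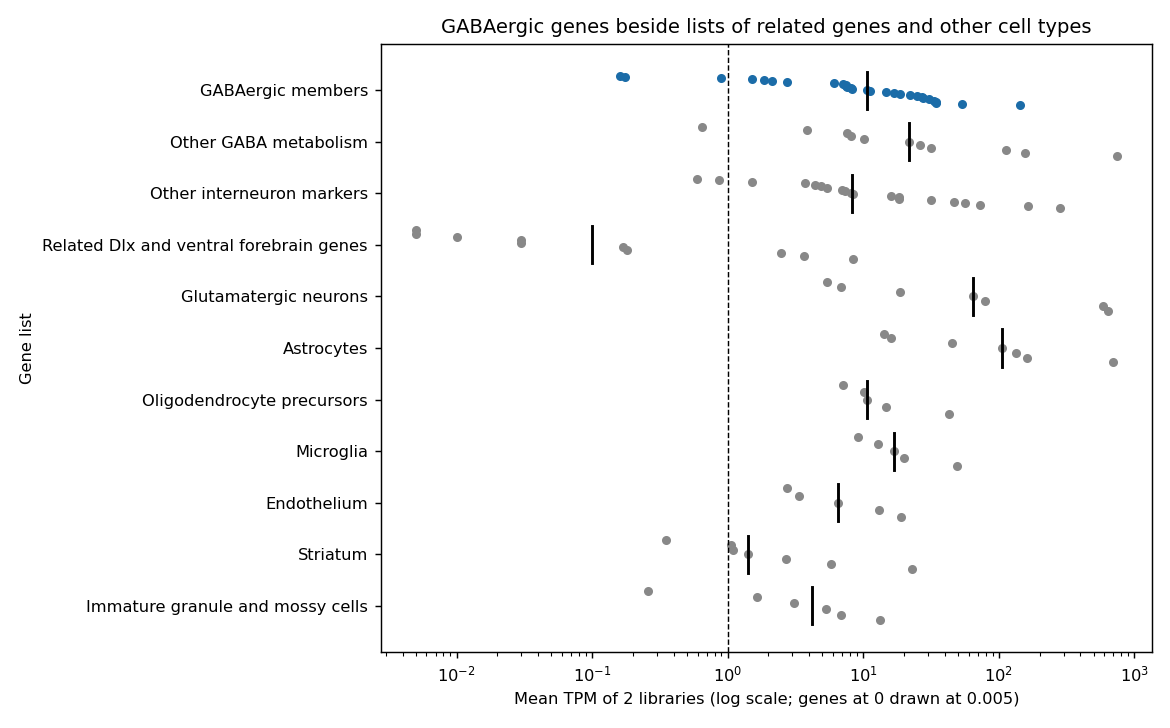
Mean TPM of the 2 libraries (log axis) for the 29 genes in blue and the genes of 10 other lists in grey, with the median of each list as a bar and the detection threshold dashed. The 29 genes have a median of 10.6 TPM, the related Dlx and ventral forebrain genes 0.1 TPM and the glutamatergic markers 64.5 TPM.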

How the data were processed

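Each library has a gene and a transcript quantification derived from an alignment to the transcriptome, and a transcript quantification derived directly from the reads, per the deposited text listings, on mm10 with GENCODE M21. Column layouts are those of RSEM and kallisto, per the file headers; the programs, and whether strand was used, are not given in these sources. The deposited expected counts are the authors' estimates of reads for each gene or transcript, with fractions where reads are shared. The deposited TPM values are scaled to a fixed sum per quantification. Gene values of the direct quantification are sums over its transcripts.

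Genes were found by symbol; where 2 identifiers shared one, the higher was used. Counts were rounded for exact intervals (Clopper-Pearson, 95%) and scaled by library totals; intervals and the floor of 3 counts cover counting error only. A 2-fold TPM ratio was read at 50 counts or more in both libraries. Shares were recomputed from TPM. Scaling alternatives used TMM (edgeR 4.0.16) and size factors (DESeq2 1.42.0) under R 4.3.3, and the rest Python 3.11.15. The interval was run on simulated counts that held only counting error and planted changes. That run cannot say how the interval fits the spread of real libraries. With 1 group nothing was tested between groups. All 29 genes are named; the rule for transcripts took the 6 highest genes and those whose top transcript differed, and further ones, such as those of Ndnf, Sox6, Nxph1, Maf and Chodl, were chosen after their values were seen. The members and lists were chosen with earlier results of these data known. Some genes of the other lists are not reported here. Reads of both parental strains were assigned to the C57BL/6J reference. Alternatives covered thresholds, scaling, the direct quantification and leaving out each library.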

Additional observations from a re-analysis of the deposited data

How the results depend on the processing

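The number of detected genes was 27 at a TPM of at least 0.5, 22 at 5, 28 in the direct quantification and 26 in either library alone. The median of the members' mean TPM moved from 10.6 to 15.2 in the direct quantification and to 25.4 after rescaling over nuclear protein-coding genes, and lay between 9.87 and 11.0 with 1 library left out. With no filter and log2(TPM + 0.1), 1 gene was at least 2-fold apart, against 0 otherwise; that gene, Chodl, has 3 and 7 counts. The genes outside the counting interval numbered 7 with TMM-scaled totals. The mean ratio of Gad1 to Gad2, 4.14 by alignment, was 2.92 directly, and, in alternatives chosen after seeing the data, 1.72 and 2.92 from the full-length coding transcripts by alignment and directly and 1.78 from expected counts; it ranged from 3.98 to 4.31 with 1 library left out. The median share of the top transcript was 65.4% directly, against 54.6%, and ranged from 53.8% to 57.9% with 1 library left out. The direct quantification moved the mean TPM of 28 members by more than their SD, and the share of 14 of 25 top transcripts; the cause was not tested. No paired analysis was possible because there is only 1 group. Depth limits Chodl, which at 3 counts in replicate 1 was not above what a count of 0 allows.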
